A study of Homo sapiens with 6 samples.

Results

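The heat shock chaperones and their J protein partners were examined in A375 cells, a human melanoma line in long use, after knockdown of the atypical mitogen-activated protein kinase ERK3, which is encoded by MAPK6. The genes were chosen by symbol in the platform annotation: the HSPA, HSPB, HSP90A, HSPH1, HSPD1 and HSPE1 genes, the DNAJA, DNAJB and DNAJC genes, BAG3 and the heat shock factors, without the stress-induced endoplasmic reticulum (ER) genes HSPA5, DNAJB9, DNAJB11 and DNAJC3. This gave 65 of the 17687 genes compared, each with 1 probe set. The siERK3 group was transfected with a predesigned siRNA against ERK3 and the siCon group with a negative control siRNA, both with the same lipid reagent, in cells kept in serum-containing DMEM. RNA was taken on day 3 and hybridised to Clariom S Pico arrays, 3 per group. The knockdown was transient and in 1 cell line, and the siRNA sequence was not known. Whether the 3 arrays of a group came from separate cultures is not stated, so every p-value reflects the spread among arrays alone, which may be technical.

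Heat shock proteins bind unfolded or partly folded proteins. HSP70 proteins (HSPA genes) bind and release clients in an ATP cycle that J proteins (DNAJ genes) start and that nucleotide exchange factors, such as the HSP110 proteins and BAG3, complete. HSP90 proteins act later on kinases and receptors, small heat shock proteins (HSPB genes) hold aggregating proteins, and HSPD1 with HSPE1 forms the folding chamber of mitochondria. The factor HSF1 raises many of these genes by binding heat shock elements, inverted repeats of the bases GAA, in their promoters. The name cytosolic chaperones covers only some of the 65 genes: by their known location, 8 act in mitochondria and 8 in or at the ER.

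The knockdown itself was large. The probe set of MAPK6, TC1500010743.hg.1, had log2 levels of 10.54, 10.32 and 10.67 in siERK3 and 13.45, 13.55 and 13.62 in siCon. The siERK3 arrays lay far below the siCon arrays, with 12.2% of the control signal left (log2 difference -3.03, SE 0.14, adjusted p = 0.000133 in limma; exact two-sided permutation p = 0.1, the smallest that 3 against 3 arrays allow). Array medians over all probe sets lay between 7.06 and 7.10, and between 45.6% and 47.6% of genes exceeded the 95th percentile of the same array's negative control probe sets, which serves as the background level below. On the second principal component of all genes, siERK3 3 at -15.2 and siCon 2 at -26.5 stood apart from the other 4 arrays, at 4.35 to 21.7. Of the melanocyte markers, SOX10 (11.72 in siERK3 and 11.78 in siCon) and MITF (9.60 and 9.77) were above background on all arrays, while MLANA, PMEL, TYR and TYRP1 were not above it on any. Of 18 measured markers of leukocytes, fibroblasts, endothelium and keratinocytes, 15 were not above background on any array. In the fibroblast list 1 of 4 measured markers fell, LUM, a matrix proteoglycan, by 0.83 (adjusted p = 0.0441 in limma), and the list's mean log2 level was 7.03 to 7.18 in siERK3 and 6.87 to 7.13 in siCon. PDGFRB, a growth factor receptor of the fibroblast list, did not pass, with log2 levels of 7.48, 7.77 and 7.73 in siERK3 and 7.08, 6.79 and 6.86 in siCon, where it was below background on all 3 arrays (adjusted p = 0.0631 in limma). LYZ of the leukocyte list did not pass either, with a difference of -0.85 (adjusted p = 0.0965 in limma) and groups that did not overlap. The part of these shifts in the results below was not tested.

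None of the 65 chaperone genes passed the adjusted threshold in limma (Benjamini-Hochberg, all genes), against 0.956% of all genes (169 of 17687), of which 0.447% were higher and 0.509% lower. Over all genes the number called was 26, 25 and 23 when siERK3 1, 2 or 3 was omitted in turn, 35, 60 and 28 when siCon 1, 2 or 3 was, and 33 with the replicate block. The smallest adjusted p among the 65 was 0.108. At an unadjusted p under 0.05, 7 genes were on the higher side (10.8% of the 65, against 6.98% of all genes) and 6 on the lower side (9.23%, against 6.5% of all genes), while 12.4% of the negative control probe sets reached that level in a fit of all probe sets. The 3 siERK3 values did not overlap the 3 siCon values for 16 of the 65 genes, or 24.6% against 19.8% of all genes. Of these, 8 were on the higher side and 8 on the lower side (12.3% each), against 10.1% and 9.7% of all genes. These shares lie near those of all genes. The median log2 difference, siERK3 minus siCon, was 0.01 over the 65 genes and 0.00 over all genes, with a range of -0.57 to 0.54. The smallest change called in the fit of all 6 arrays and all genes was 0.68, which is larger than any difference in this family.

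The count of 13 genes at an unadjusted p under 0.05 was 8 without siERK3 1 and 6 without siERK3 2, and the 7 on the higher side became 3 without siERK3 1, 2 without siERK3 2 and 4 without siCon 1. With a variance trend and robust moderation, limma called 3 of the 65, HSP90AA1 and HSPH1 higher and HSPA13 lower, beside 4.08% of all genes. Among genes above the median level it called HSPA13 alone, 1 of 46, beside 6.57% of the genes so tested.

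For 64 of the 65 genes the 95% interval of the difference, not adjusted for the number of genes, lay inside a 2-fold change in either direction, HSPA4L being the exception, and for 40 it lay inside a 1.5-fold change. Among the 43 genes above background on all 6 arrays these counts were 42 and 26. Of the 65, 43 were above background on all 6 arrays, 19 on none and 3 on some. For the 19, which include HSPA6, HSPA1L, HSPB3, HSPB6, HSPB7 and HSPB9, a change at low level could not be seen. The number of arrays limits the precision of all these values.

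**Figure D1:**
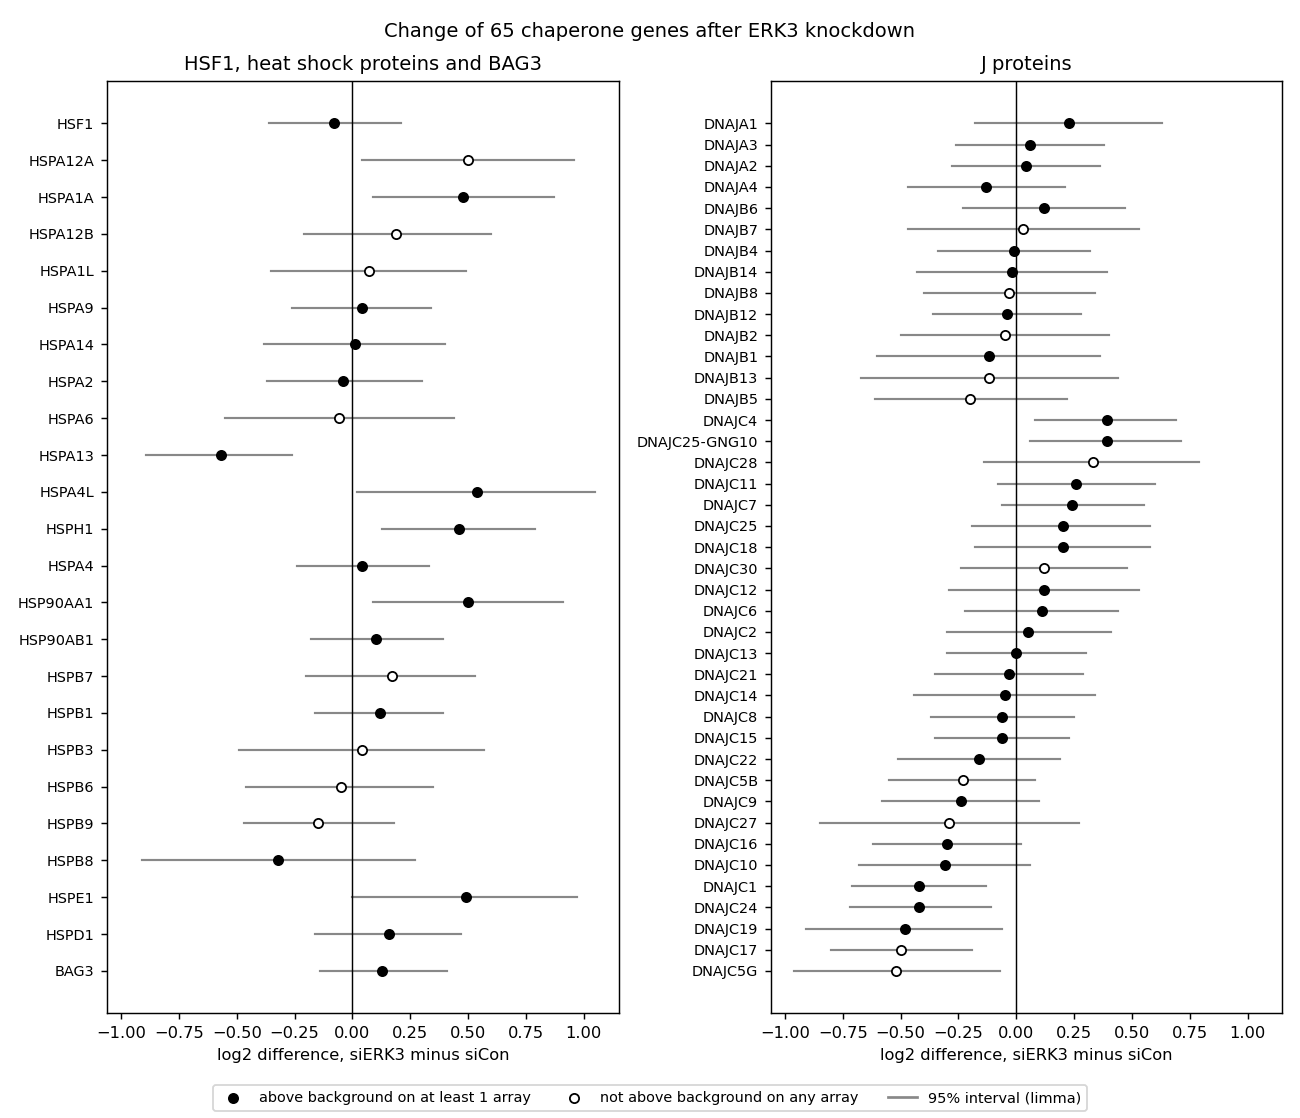
Log2 difference, siERK3 minus siCon, of each of the 65 genes (points) with its 95% interval from limma (lines), grouped by family; open points mark genes not above background on any array. The values run from -0.57 for HSPA13 to 0.54 for HSPA4L, and HSPA4L alone has an interval that passes 1.

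HSF1 and BAG3 were examined first. HSF1, the main heat shock factor, had log2 levels of 10.00, 9.98 and 10.07 in siERK3, against 10.08, 10.02 and 10.18 in siCon. The groups overlapped, and the difference was -0.08 (95% interval -0.36 to 0.21, adjusted p = 0.843 in limma). BAG3, the exchange factor that links HSP70 to small heat shock proteins and selective autophagy, had 12.45, 12.51 and 12.38 in siERK3, against 12.32, 12.29 and 12.32 in siCon. Every siERK3 value of BAG3 lay above every siCon value, yet the difference was only 0.13 (95% interval -0.14 to 0.41, adjusted p = 0.705). HSF2, HSPA8 and HSPA1B were not analysed here.

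The list of heat-inducible genes held 12 measured members, and its differences leaned to the higher side without a call. Of the 12, 10 had a positive and 2 a negative difference, 0 passed over all genes, and the median was 0.19 against 0.00 over all genes. For 4 of them, HSPH1, HSPA1A, BAG3 and HSPB1, the groups did not overlap, as was the case for 19.8% of all genes (10.1% higher in siERK3). The list was drawn up with earlier results of these arrays known.

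The largest positive difference in the family belonged to HSPA4L, a nucleotide exchange factor of the HSP110 type. Its log2 levels were 9.46, 9.47 and 9.33 in siERK3, against 8.79, 9.41 and 8.44 in siCon. The siCon arrays were widely spread and siCon 2 reached the siERK3 range, so that the difference of 0.54 (SE 0.23, 1.45-fold, adjusted p = 0.354 in limma) was 0.80 without siCon 2 and 0.31 without siCon 3. HSPH1, another HSP110 protein, had 14.78, 14.48 and 14.55 in siERK3, against 14.30, 14.00 and 14.13 in siCon. All siERK3 arrays exceeded all siCon arrays for HSPH1, with a difference of 0.46 (SE 0.15, 1.37-fold, 95% interval 1.09-fold to 1.73-fold, adjusted p = 0.222). HSPA4, the third member of this type, had a difference of 0.04 (SE 0.12).

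HSP90AA1, the inducible cytosolic HSP90, had log2 levels of 15.53, 15.67 and 15.20 in siERK3, against 15.21, 14.70 and 14.98 in siCon. The groups met at siERK3 3 and siCon 1, and the difference was 0.50 (SE 0.18, 1.41-fold, adjusted p = 0.278 in limma). HSP90AB1, the constitutive form, had 16.00, 16.05 and 16.05 in siERK3, against 15.96, 15.84 and 16.00 in siCon. Its difference was 0.10 (SE 0.13), and whether the paralogs differ from each other was not tested.

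HSPA1A, the classical inducible HSP70, had log2 levels of 10.29, 10.55 and 10.01 in siERK3, against 9.96, 9.64 and 9.81 in siCon. The groups did not overlap, with a difference of 0.48 (SE 0.17, 1.40-fold, 95% interval 1.07-fold to 1.83-fold, adjusted p = 0.270 in limma). HSPA1B encodes the same protein from a nearly identical neighbouring gene, so this probe set may report both. HSPA6, an HSP70 that is induced only by strong stress, lay below background on every array, at 5.25, 4.70 and 4.64 in siERK3, against 4.67, 4.81 and 5.28 in siCon. Its groups overlapped and no fold is given.

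The mitochondrial chaperonin HSPE1 had log2 levels of 12.85, 12.79 and 12.36 in siERK3, against 12.48, 11.77 and 12.29 in siCon, and its partner HSPD1 had 14.85, 14.83 and 14.59 in siERK3, against 14.70, 14.48 and 14.63 in siCon. The groups overlapped for both genes, siERK3 3 being the lowest siERK3 array and siCon 2 the lowest siCon array for each. The differences were 0.49 (SE 0.22, adjusted p = 0.374 in limma) for HSPE1 and 0.16 (SE 0.14, adjusted p = 0.700) for HSPD1. Without siCon 2 they were 0.28 and 0.09. HSPA9, the mitochondrial HSP70, had a difference of 0.04 (SE 0.13).

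HSPB1, the abundant small heat shock protein HSP27, had log2 levels of 15.15, 15.15 and 15.12 in siERK3, against 15.03, 15.04 and 15.00 in siCon. These groups were tight and did not overlap, but the difference was 0.12 (SE 0.12, adjusted p = 0.744 in limma). HSPB8, the small heat shock protein that works with BAG3, had 8.51, 8.64 and 8.13 in siERK3, against 9.04, 8.14 and 9.06 in siCon. Its groups overlapped at siCon 2, and the difference was -0.32 (SE 0.26). It was -0.62 without siCon 2, -0.17 without siCon 1 or siERK3 3, and -0.16 without siCon 3.

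Of the J proteins in this list, DNAJA1, a main partner of cytosolic HSP70, had log2 levels of 12.99, 12.83 and 12.89 in siERK3, against 12.92, 12.30 and 12.81 in siCon. The single low array was siCon 2, and the difference was 0.23 (SE 0.18), or 0.04 without siCon 2 and 0.35 without siCon 1. DNAJB1, the J protein known as HSP40, had 11.31, 11.36 and 11.04 in siERK3, against 11.81, 11.01 and 11.25 in siCon. The groups overlapped and the difference was -0.12 (SE 0.21). It was 0.11 without siCon 1, the highest array.

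**Figure D2:**
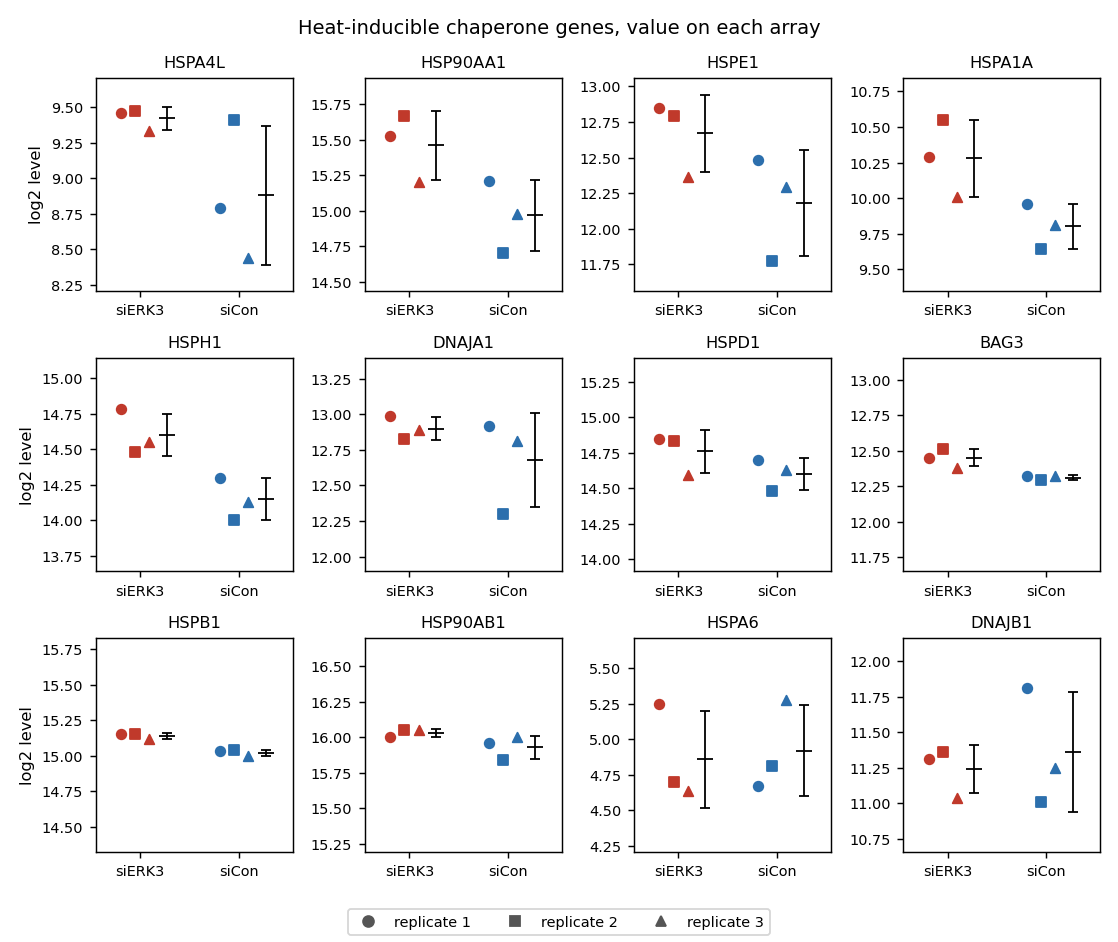
Log2 level on each array of the 12 measured heat-inducible genes, siERK3 in red and siCon in blue, with the mean and SD of 3 arrays in black; every panel spans the same 1.5 log2 units. HSPA4L, HSP90AA1, HSPE1, HSPA1A and HSPH1 have differences of 0.46 to 0.54, while the siERK3 and siCon values of HSP90AB1 and HSPB1 lie within 0.10 to 0.12 of each other on average.

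The arrays that stood apart on the second component also marked this list. Averaged over the 12 genes, the deviation from each gene's mean over 6 arrays was 0.22, 0.17 and -0.01 in siERK3 1, 2 and 3, against -0.01, -0.25 and -0.11 in siCon 1, 2 and 3. Thus siERK3 3 and siCon 2 were the lowest arrays of their groups here, as on the component, and siERK3 3 met siCon 1. Without both arrays the median of the list was 0.17, with a range of -0.19 to 0.84. The differences were positive for 11 of 12, counting HSPA6, which was below background and rounded to 0.00. Over the 53 other chaperone genes the array means lay between -0.05 and 0.05.

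**Figure D3:**
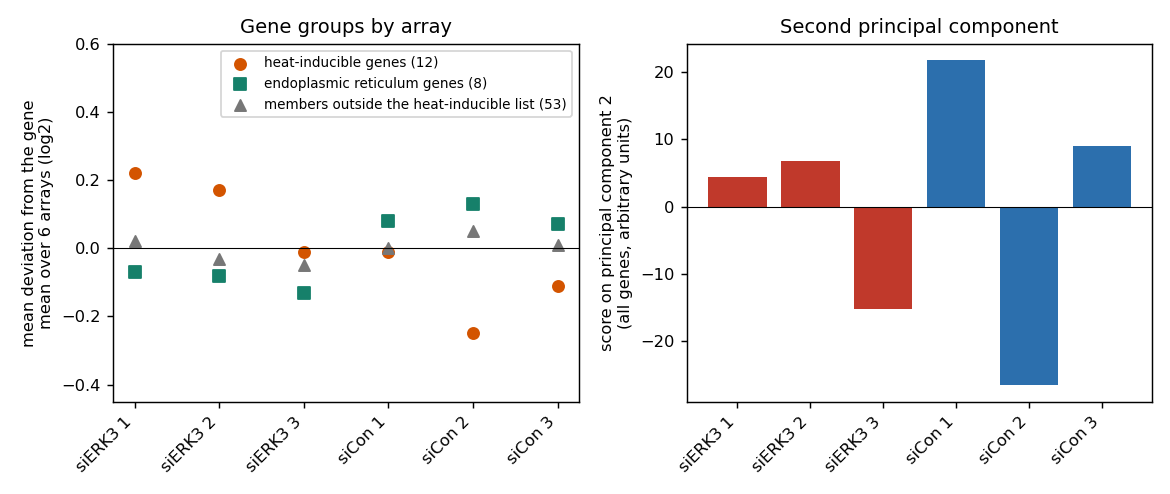
Left, mean deviation (log2) of 3 gene groups from the genes' means over 6 arrays, by array; right, score of each array on the second principal component of all genes, siERK3 in red and siCon in blue. The heat-inducible genes are lowest within each group on siERK3 3 (-0.01) and siCon 2 (-0.25), the arrays with negative component scores of -15.2 and -26.5, whereas the ER genes lie below 0 on all siERK3 arrays and above 0 on all siCon arrays.

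The promoters of these genes were read from RefSeq (GRCh38.p14), as windows from 250 bases before to 50 after each annotated gene start. Windows were found for 58 of the 65 genes, 77 windows in all. A heat shock element of 3 units, GAANNTTCNNGAA on either strand, was present in 6 of the 58 genes (10.3%), against 0.608% of the 27305 genes in the table. Per window of equal length the shares were 7.79% of the 77 and 0.490% of all 35116. The genes were HSP90AA1, HSP90AB1, HSPD1, HSPA6, DNAJA1 and DNAJB6. Their log2 differences were 0.50, 0.10, 0.16, -0.06, 0.23 and 0.12, none past the test. The 2-unit form GAANNTTC, which overlaps the longer one, was present in 25.9% of the 58 genes and 8.21% of all genes, and TTCNNGAA in 20.7% and 9.46%. HSPH1, HSPE1 and BAG3 held none of these letters in their windows. A match is a description of letters, not of binding, and factor binding was not measured.

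The windows below were picked from those of heat-inducible genes that hold a match. HSPA6, with the 3-unit element, and HSPB1, DNAJB1 and HSPA4L, with a 2-unit form, are not shown. Each window is written 5′ to 3′ on the gene's strand. Capitals mark the 3-unit element, of which HSP90AB1 holds 2 separate matches and HSPD1 holds 2 that overlap. In HSPA1A they mark the 2-unit GAANNTTC.
HSP90AA1 chr14:102086995-102087294 (- strand): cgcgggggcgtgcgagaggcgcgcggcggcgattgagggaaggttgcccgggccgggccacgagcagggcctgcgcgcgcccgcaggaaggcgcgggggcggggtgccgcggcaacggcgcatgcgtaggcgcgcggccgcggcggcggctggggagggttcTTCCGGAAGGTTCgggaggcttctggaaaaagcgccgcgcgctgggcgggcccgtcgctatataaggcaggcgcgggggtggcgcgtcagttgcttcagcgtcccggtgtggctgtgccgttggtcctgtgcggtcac
HSP90AB1 chr6:44247693-44247992 (+ strand): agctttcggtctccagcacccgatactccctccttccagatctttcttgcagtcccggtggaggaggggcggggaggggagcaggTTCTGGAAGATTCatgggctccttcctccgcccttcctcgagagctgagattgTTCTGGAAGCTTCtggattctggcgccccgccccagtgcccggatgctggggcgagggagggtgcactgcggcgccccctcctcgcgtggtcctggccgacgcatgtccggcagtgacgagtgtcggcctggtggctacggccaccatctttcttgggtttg
HSPD1 chr2:197499791-197500090 (- strand): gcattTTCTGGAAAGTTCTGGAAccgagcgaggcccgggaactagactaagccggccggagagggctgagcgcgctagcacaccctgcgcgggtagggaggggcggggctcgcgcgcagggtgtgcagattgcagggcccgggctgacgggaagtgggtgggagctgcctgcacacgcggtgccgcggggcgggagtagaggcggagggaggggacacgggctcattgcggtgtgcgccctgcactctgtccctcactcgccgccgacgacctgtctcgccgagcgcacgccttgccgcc
DNAJA1 chr9:33025023-33025322 (+ strand): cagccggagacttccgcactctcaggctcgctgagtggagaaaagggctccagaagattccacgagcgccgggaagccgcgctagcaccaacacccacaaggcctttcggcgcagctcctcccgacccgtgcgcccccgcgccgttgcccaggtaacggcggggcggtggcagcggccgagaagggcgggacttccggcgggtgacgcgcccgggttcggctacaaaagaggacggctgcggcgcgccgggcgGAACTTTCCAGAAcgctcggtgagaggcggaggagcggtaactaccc
HSPA1A chr6:31815293-31815592 (+ strand): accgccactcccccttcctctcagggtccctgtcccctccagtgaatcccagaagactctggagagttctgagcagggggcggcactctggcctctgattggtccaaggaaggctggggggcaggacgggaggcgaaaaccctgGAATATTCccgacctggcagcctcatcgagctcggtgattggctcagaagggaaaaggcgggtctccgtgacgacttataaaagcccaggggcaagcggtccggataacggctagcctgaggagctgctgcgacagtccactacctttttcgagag

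Some windows overlapped between neighbouring genes. The HSPD1 window that is not shown above and that of HSPE1 run on opposite strands and have 204 bases in common. Neither holds a match, and the HSPD1 window with the marked elements does not overlap that of HSPE1. The marked elements lie at its end that faces HSPE1. That window ends at base 197500090 and the HSPE1 window begins at base 197500129. The absence of a match in HSPE1 therefore depends on the window length. The windows of HSPA1A and HSPA1L have 241 bases in common, also on opposite strands. The GAANNTTC marked in HSPA1A lies in this common stretch and reads the same on both strands. It is thus also the match of HSPA1L, and both genes count in the 25.9% given above. HSPA1L, an HSP70 expressed mainly in testis, was below background on every array (3.85 in siERK3 and 3.78 in siCon), whereas its neighbour HSPA1A was above it on all. The windows of DNAJC25 and of its read-through transcript DNAJC25-GNG10 were the same over all 300 bases.

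The 6 largest negative differences among chaperone genes above background were outside the heat-inducible list. HSPA13, an HSP70-like ATPase of the ER and microsomes, had the smallest p of the 65 genes. Its log2 levels were 10.03, 9.92 and 10.13 in siERK3, against 10.45, 10.63 and 10.73 in siCon. No siERK3 array reached the lowest siCon array, and the difference was -0.57 (SE 0.14, 1.49-fold lower, adjusted p = 0.108 in limma). DNAJC1, a J protein of the ER membrane, had 9.02, 9.09 and 8.91 in siERK3, against 9.51, 9.37 and 9.41 in siCon. Its groups were tight and did not overlap, with a difference of -0.42 (SE 0.13, 1.34-fold lower, adjusted p = 0.197).

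DNAJC10, the ER disulfide reductase ERdj5, had log2 levels of 11.11, 11.04 and 11.36 in siERK3, against 11.47, 11.71 and 11.26 in siCon. Its groups overlapped, siERK3 3 exceeding siCon 3, and the difference was -0.31 (SE 0.16), or -0.19 without siCon 2 and -0.42 without siCon 3. DNAJC16, also of the ER, had a difference of -0.30 (SE 0.14) with no overlap, and is named after its values were seen. Of the 8 ER genes, 7 had a negative and 1 (DNAJC18, 0.20) a positive difference, 0 passed over all genes, and the median was -0.17 against 0.00 over all genes. DNAJB12, DNAJB14 and DNAJC14, which sit in the ER membrane, lay between -0.05 and -0.02. The mean deviation over the 8 was -0.07, -0.08 and -0.13 on siERK3 1, 2 and 3, against 0.08, 0.13 and 0.07 on siCon 1, 2 and 3. Without siERK3 3 and siCon 2 the median was -0.13, with 6 of 8 negative.

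The ER chaperones that mark the unfolded protein response, which the selection leaves out, were read beside them. HSPA5, the ER HSP70 known as BiP, had log2 levels of 14.59, 14.42 and 14.27 in siERK3, against 14.30, 14.13 and 14.21 in siCon. Its difference was 0.22 (SE 0.14, adjusted p = 0.568 in limma). DNAJB11 had a difference of 0.11, DNAJB9 of 0.02 and DNAJC3 of -0.06, so 0 of the 4 measured passed.

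**Figure D4:**
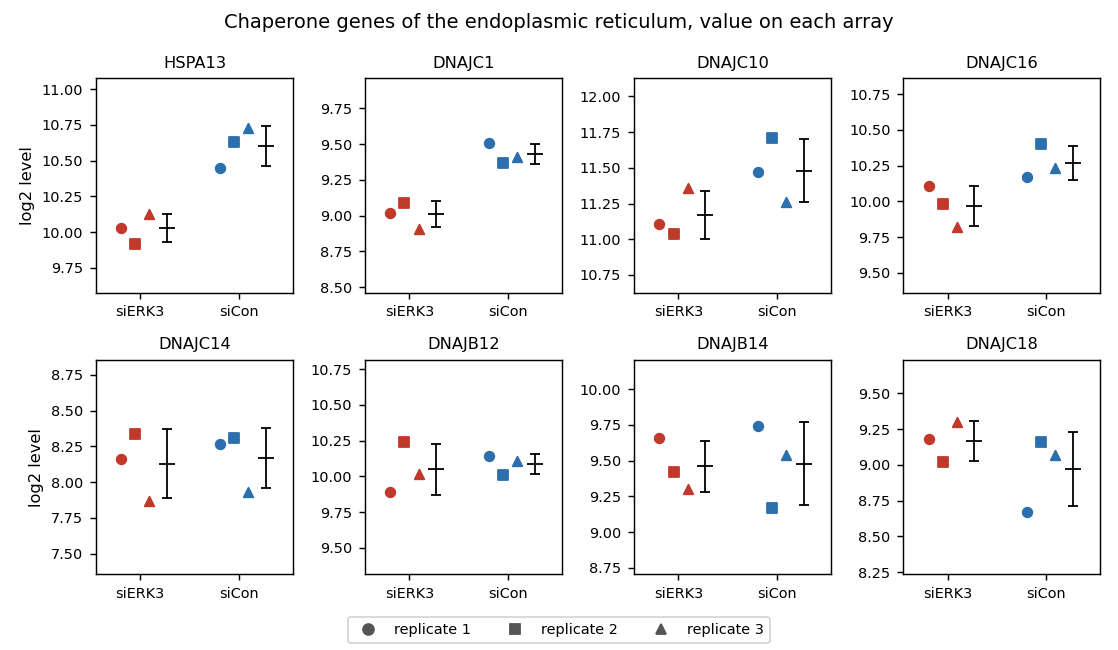
Log2 level on each array of the 8 ER chaperone genes, siERK3 in red and siCon in blue, with the mean and SD of 3 arrays in black; every panel spans the same 1.5 log2 units. HSPA13, DNAJC1 and DNAJC16 keep the groups apart, all lower in siERK3 (as for 9.7% of all genes), while the groups overlap in the other 5 panels.

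Among J proteins with other tasks, DNAJC24, which takes part in making diphthamide on elongation factor 2, had log2 levels of 9.29, 9.16 and 9.19 in siERK3, against 9.50, 9.60 and 9.78 in siCon. The groups did not overlap (difference -0.42, SE 0.13, adjusted p = 0.226 in limma). DNAJC19, a J protein of the mitochondrial inner membrane, had 9.73, 9.37 and 9.16 in siERK3, against 9.79, 10.16 and 9.76 in siCon. The groups came close at siERK3 1 but did not overlap (difference -0.48, SE 0.19, adjusted p = 0.303). DNAJC17, a nuclear J protein tied to splicing, was below background on every array, at 6.80, 6.89 and 6.59 in siERK3, against 7.24, 7.28 and 7.24 in siCon. Its groups did not overlap (adjusted p = 0.146), and no fold is given at that level.

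On the higher side, DNAJC25-GNG10 had log2 levels of 8.72, 8.58 and 8.40 in siERK3, against 8.05, 8.22 and 8.27 in siCon. The groups did not overlap (difference 0.39, SE 0.14, adjusted p = 0.285 in limma). DNAJC25 itself, whose exons this read-through shares, overlapped between groups with a difference of 0.20 (SE 0.17), so the probe sets may share signal. DNAJC4 and DNAJC7 also kept the groups apart, at 0.39 and 0.24, and are named after their values were seen. Across the 27 DNAJC genes, 11 differences were positive and 16 negative, with a median of -0.05 and none past the test. The groups did not overlap for 3 of the 27 on the higher side and 7 on the lower side. Over all genes this held for 10.1% and 9.7%. The 7 include DNAJC17, DNAJC5G and DNAJC5B, which were below background on every array. The 10 DNAJB genes lay between -0.20 and 0.12 and the 4 DNAJA genes between -0.13 and 0.23. In none of these 14 did the groups separate, against 19.8% of all genes. So few genes cannot show a difference from that share. However, 5 of the DNAJB genes were not above background on any array, and DNAJA4 was above it on 1 siCon array only. For these a change at low level could not be seen. The J proteins of clathrin-coated vesicles and endosomes, DNAJC6 and DNAJC13, had differences of 0.11 and 0.00.

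**Figure D5:**
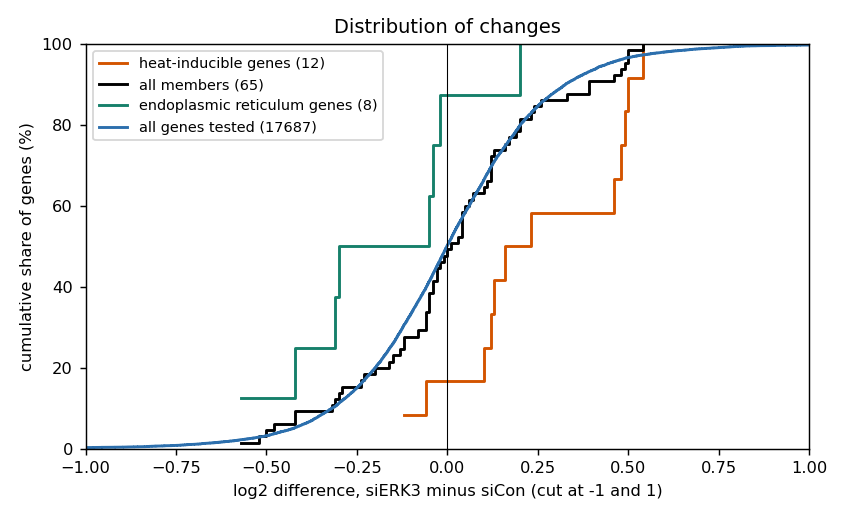
Cumulative share of genes (vertical axis, %) by log2 difference, siERK3 minus siCon (horizontal axis), for the 12 heat-inducible genes, the 65 chaperone genes, the 8 ER genes and all 17687 genes tested. The curve of the 65 genes runs close to that of all genes, with medians of 0.01 and 0.00, and the heat-inducible and ER genes lie to its right and left with medians of 0.19 and -0.17.

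Partner genes outside the family were read from further lists. Of 9 exchange factors and related proteins, 1 fell and 8 did not pass. The member that fell was GRPEL2, a mitochondrial exchange factor for HSPA9, with log2 levels of 11.30, 11.04 and 11.22 in siERK3, against 11.93, 11.83 and 12.04 in siCon. The groups were clearly apart (difference -0.75, SE 0.14, 1.68-fold lower, adjusted p = 0.0487 in limma), but the adjusted p lay between 0.0877 and 0.181 when any 1 array was left out and was 0.134 with the replicate number as a block. Its paralog GRPEL1, the housekeeping form, had a difference of 0.00 (SE 0.13), and the difference between the paralogs was not tested.

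None of the 10 measured HSP90 and HSP70 co-chaperones passed, with a median of 0.04. Those with the smallest p were PPID, a cyclophilin that binds HSP90 (difference 0.29, adjusted p = 0.482 in limma), and STIP1, the adaptor between HSP70 and HSP90 (0.19, adjusted p = 0.617). None of the 12 subunits of the TRiC chaperonin and of prefoldin passed either, with a median of 0.03 and differences from -0.35 for VBP1 to 0.27. PFDN4, also of prefoldin, had the smallest p of that list (difference -0.23, adjusted p = 0.488). Of 7 further genes known as HSF1 targets, 0 passed. SERPINH1, the collagen chaperone HSP47, had log2 levels of 10.48, 10.58 and 10.32 in siERK3, against 9.94, 9.55 and 9.79 in siCon. SQSTM1, the autophagy receptor p62, had 14.75, 14.82 and 14.70 in siERK3, against 15.42, 15.33 and 15.24 in siCon. Both kept the groups apart in opposite directions, at 0.70 (adjusted p = 0.0774 in limma) and -0.58 (adjusted p = 0.0837). Both passed under either filter on level and with the variance trend, with adjusted p of 0.00591 to 0.041 for SERPINH1 and 0.000147 to 0.0408 for SQSTM1 in limma. In the other alternatives SERPINH1 had adjusted p of 0.0591 to 0.236 and SQSTM1 of 0.0702 to 0.31.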

How the data were processed

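The deposited values are log2 signals of 24351 probe sets on each array, from 1.84 to 19.4, a scale inferred from that range. How the authors corrected, summarised and normalized them is not stated in the labels. Up to 1.61% of values exceed 16, a 16-bit scanner's log2 limit, so the zero point and any stretch of the scale are unknown, and folds would change with a stretch. Array medians are nearly equal. Of the probe sets, 17709 have 1 symbol in the platform annotation; the brightest was kept per gene. Controls and 3739 unnamed probe sets were left out of the gene tests. They were included in the fit of all probe sets, from which the share of negative controls was read. No filter or pseudocount was applied.

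All genes were fitted with limma 3.58.1 in R 4.3.3 (lmFit, eBayes, siERK3 minus siCon, two-sided) with Benjamini-Hochberg adjustment over 17687 genes at 0.05; intervals are 95%. A gene at or below the 95th percentile of 612 negative controls on every array of both groups is called below background. The members, gene lists and alternatives were chosen with earlier results of these data known. Named are HSF1, BAG3, the heat-inducible list, the 6 largest positive and negative differences among genes above background on all arrays of a group, and genes without overlap at an unadjusted p under 0.01; for outside lists, called genes or the 2 with the smallest p. The alternatives were other normalizations, filters on level, probe set averaging, variance moderation, array weights, the replicate number as a block and arrays left out.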

Additional observations from a re-analysis of the deposited data

How the results depend on the processing

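No count for the 65 genes under other normalizations (quantile, cyclic loess, median subtraction), probe set averaging, array weights or the filter at the 30th percentile moved by over 1.5 times, and 0 genes passed in each of these fits. The count past the adjusted threshold was 1 among genes above the median level and 3 with the variance trend and robust moderation. With 1 array left out it was 0 in every fit, in which 23 to 60 of all genes passed, while the counts at an unadjusted p under 0.05 were 6 to 11 in all, 2 to 5 higher and 4 to 7 lower, the median difference 0.00 to 0.06 and MAPK6 -3.11 to -2.94. With siERK3 3 and siCon 2 both left out, 38 of the 65 differences were positive and 27 negative. Of 333 pairs of a named gene and an alternative, 324 kept the direction and the side of the threshold, 4 passed it (HSPA13 in 2 fits, HSP90AA1 and HSPH1 in 1 each) and 5 turned direction. These were DNAJB1 at 0.11 without siCon 1 (-0.29 to 0.11 with any 1 array left out), and HSPA6 at 0.02 without siERK3 2, 0.05 without siERK3 3, 0.12 without siCon 3 (-0.25 to 0.12 with any 1 array left out) and 0.00 without both siERK3 3 and siCon 2. HSPA6 is below background, and the cause was not tested. Same-numbered arrays had correlations of their deviations of 0.05, -0.12 and -0.04, against -0.15 to 0.17 for pairs with different numbers. With 3 arrays per group these values cannot show whether same-numbered arrays shared a culture or day. With the replicate number as a block, 0 genes passed and 12 of the 65 (6 higher and 6 lower) had an unadjusted p under 0.05, with a median of 0.01 and MAPK6 at -3.03.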
